A study of Mus musculus with 2 samples.

Results

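The genes described here are 33 stress and activation genes, taken by symbol from the 31054 features of the count tables: 19 immediate early genes, 5 feedback genes of NF-kB and cytokine signalling and 9 heat shock genes. No cut on measured values was applied to them, but the members were chosen with earlier results of these data known. All 33 were counted in both libraries. Single-cell RNA was measured in mCherry+ cells sorted from pooled mouse tumours, in 1 library from young mice aged 4 weeks and 1 from adult mice aged 24 weeks, both labelled d7. By its title, the study asked about cross-presentation of tumour antigen and CD8 T cell differentiation in young hosts. Mouse strain and sex, tumour type, pool size, the source of the mCherry gene and the method of tumour dissociation are not stated in the labels. With 1 library for each age no test was possible and no p-value is given, and the effects of age, pool, sort and library cannot be told apart.

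Immediate early genes are transcribed within minutes of a stimulus, without new protein synthesis, and many encode transcription factors of the Fos, Jun, Egr, Klf and Nr4a families or enzymes that end the signal, such as the Dusp phosphatases. The feedback genes are switched on by NF-kB or cytokine receptors, and some of them, such as Nfkbia, Tnfaip3 and Socs3, restrain the same pathways. Heat shock genes encode chaperones that fold proteins, some made at all times and some only under stress through the factor Hsf1. Many of these genes are also known to respond to enzymatic and mechanical dissociation of tissue, which was not tested here. Values are unique molecular identifiers (UMIs, counted RNA molecules) summed over the cells of a class and given per 1000000 UMIs of that sum (CPM). Paired values are for the young and then the adult library. Intervals are at 95% and cover counting error only.

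Cells were placed in 4 classes by the marker rules set for these genes. mCherry-rich cells had at least 10 UMIs of the mCherry construct (421 young and 475 adult cells). Csf1r cells had a UMI of Csf1r, the receptor of monocytes and macrophages, and fewer than 2 of mCherry (5346 and 4230 cells). S100a8/S100a9 cells had at least 1% of their UMIs from these 2 neutrophil genes (101 and 176 cells). Cd3 cells had at least 2 UMIs of the T cell receptor genes Cd3d, Cd3e and Cd3g (40 and 105 cells). Barcodes that met more than 1 rule were left out (46 and 36), and 1136 and 752 kept cells met none. The mCherry-rich and Csf1r rules cannot both be met, so this step removed no barcode that mixed mCherry with Csf1r. Of the mCherry-rich cells, 195 of 421 young and 174 of 475 adult cells had a Csf1r UMI and were kept in that class.

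Markers that the class rules did not use were present in each class. Leaving out the genes of the rules, 9 of 9 macrophage or monocyte markers were detected in Csf1r cells (16491 and 13419 CPM in sum), 8 of 8 neutrophil markers in S100a8/S100a9 cells (6240 and 10563 CPM) and 7 of 7 T cell markers in Cd3 cells (3903 and 3437 CPM). Detection alone does not separate the classes. With the rule genes included, 10 of 10 neutrophil and 10 of 10 T cell markers were also above 0 in Csf1r cells. Their sums there were 192 and 235 CPM for neutrophil and 116 and 67.4 CPM for T cell markers. Il7r, a T cell marker here, was at 112 and 62.2 CPM in Csf1r and 86.3 and 115 CPM in Cd3 cells. Natural killer cell markers in Cd3 cells summed to 2692 CPM in the young and 328 CPM in the adult library. Nearly all of this was Gzma (2592 and 311 CPM). Klrb1c was at 65.6 and 1.74 CPM, Ncr1 at 17.3 and 6.95 CPM and Eomes at 17.3 and 8.68 CPM, each higher in the young library. The sum therefore mostly follows Gzma and is no measure of natural killer cells, whose share in the class was not tested. Of the T cell markers, Cd8a was at 538 and 191 CPM and Cd4 at 48.3 and 118 CPM. The class thus differed in these markers between the ages. mCherry-rich cells carried 3303 and 3407 CPM of the construct, with 1348 and 759 CPM of macrophage or monocyte and 123 and 174 CPM of fibroblast markers. Most of the fibroblast sum was Dcn (111 and 155 CPM), with Col1a1 at 0 and 0.352 CPM and Col1a2 at 0.822 and 0.235 CPM. The mCherry-rich cells were given no cell type. Their C1q genes (C1qa, C1qb and C1qc) were at 7.20% and 5.83% of the level in Csf1r cells, against 5.44% and 6.64% in S100a8/S100a9 cells and 2.15% and 13.9% in Cd3 cells. The RNA of Csf1r cells was subtracted at this level as an alternative. Median UMIs per cell were 32052 and 31440 in mCherry-rich, 10325 and 10090 in Csf1r, 2127 and 1792 in S100a8/S100a9 and 5585 and 4223 in Cd3 cells. Median mitochondrial shares were 2.08% and 2.24%, 1.57% and 1.82%, 0.413% and 0.392%, and 2.89% and 2.25% in the same order. The libraries shared 111 cell barcodes, of which 38 were mCherry-rich in the adult library at a median of 78728 UMIs and in no class in the young library at a median of 595.5 UMIs. Leaving out all shared barcodes added Egr1 to the members higher in young Cd3 cells and changed no other call described below.

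Promoters of genes on which the results turn are shown, with letters that match elements of kinds known to act in the induction of such genes. RefSeq windows (GRCm38.p6, from 250 bases before to 50 after the start) were found for 28 of the 33 genes. The windows of Hspa1a and Hspa1b, neighbouring genes of the inducible chaperone, are printed from chr17:34972157-34972306 and chr17:34959239-34959388, both on the minus strand. Capitals mark an inverted pair of heat shock units (GAANNTTC).

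Hspa1a: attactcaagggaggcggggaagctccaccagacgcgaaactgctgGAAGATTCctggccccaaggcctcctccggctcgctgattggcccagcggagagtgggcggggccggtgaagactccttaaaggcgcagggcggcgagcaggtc

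Hspa1b: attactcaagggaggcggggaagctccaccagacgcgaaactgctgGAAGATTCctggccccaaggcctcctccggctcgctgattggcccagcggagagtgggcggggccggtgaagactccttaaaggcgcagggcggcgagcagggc

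The bases printed for this pair are identical at 149 of 150 positions. Both genes hold the element at the same distance before the start. The transcripts are alike too: 58.8% of the 50-base stretches of Hspa1a also lie in Hspa1b, but 0% of those in its last 500 bases, the end that a 3' library reads. Reads of the pair may still have been split or dropped in counting, and their separate counts are uncertain.

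Hspd1 and Hspe1, which encode the mitochondrial chaperonin and its co-chaperonin, lie head to head on chromosome 1 with overlapping 5' ends (Hspd1 from 55077835 to 55088243 on the minus and Hspe1 from 55088132 to 55091307 on the plus strand). The bases printed are chr1:55088051-55088080 on the plus strand, before the start of Hspe1, and overlap an annotated exon of Hspd1. Capitals mark a run of heat shock units in the 3-unit form (GAANNTTCNNGAA or TTCNNGAANNTTC).

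Hspe1: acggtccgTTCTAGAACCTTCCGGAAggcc

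Nfkbia encodes the inhibitor that holds NF-kB in the cytoplasm, and Tnfaip3 an enzyme that edits ubiquitin chains and stops NF-kB signalling. Dusp1 encodes a phosphatase of MAP kinases. They are printed from chr12:55492648-55492797, chr10:19015514-19015543 and chr17:26508593-26508622, all on the minus strand. Capitals mark a kappa B site in the Nfkbia and Tnfaip3 bases and a cyclic AMP response element in those of Dusp1.

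Nfkbia: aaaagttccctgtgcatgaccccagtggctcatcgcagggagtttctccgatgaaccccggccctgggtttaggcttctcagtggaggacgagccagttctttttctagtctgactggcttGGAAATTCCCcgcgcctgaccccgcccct

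Tnfaip3: ctcacgcgGGGACACCCCggggcgggacct

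Dusp1: gggcgggTGACGTCAccgcccggtcacgtg

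On either strand, the inverted heat shock pair lay in the windows of 6 of 7 heat shock genes (Hspa1a, Hspa1b, Hsph1, Hspd1, Hspe1 and Dnaja1) and in 2 of 17 immediate early genes (Fosl2 and Jun), against 7.86% of all 32851 windows. The 3-unit form, which contains such a pair, lay in Hsph1, Hspd1 and Hspe1, against 0.603% of all windows. The kappa B site lay in 2 of 4 feedback genes (Nfkbia and Tnfaip3) and 6 of 17 immediate early genes (Fos, Fosb, Fosl2, Ier3, Nr4a1 and Maff), against 4.51%. A cyclic AMP response element (TGACGTCA) lay in Dusp1, Btg2 and Maff (1.79% of all windows), an AP-1 site (TGANTCA) in Tnfaip3 (7.81%) and a CArG box in Zfp36 (1.63%). A match says only that these letters are present.

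The 3 groups of genes took different shares of RNA in the 4 classes, in the same order of classes in both libraries for the immediate early and feedback genes. The 19 immediate early genes made up 1.29% and 1.67% of UMIs in S100a8/S100a9 cells, 0.645% and 0.633% in Csf1r cells, 0.428% and 0.582% in Cd3 cells and 0.211% and 0.233% in mCherry-rich cells. For the 5 feedback genes the shares were 1.07% and 1.06%, 0.367% and 0.346%, 0.201% and 0.311%, and 0.0738% and 0.0652% in that order. The 9 heat shock genes stood in another order, highest in mCherry-rich cells at 0.412% and 0.435%. They took 0.248% and 0.256% of UMIs in Csf1r cells, 0.334% and 0.263% in Cd3 cells and 0.153% and 0.265% in S100a8/S100a9 cells. The last 3 of these classes changed places between the libraries.

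**Figure D1:**
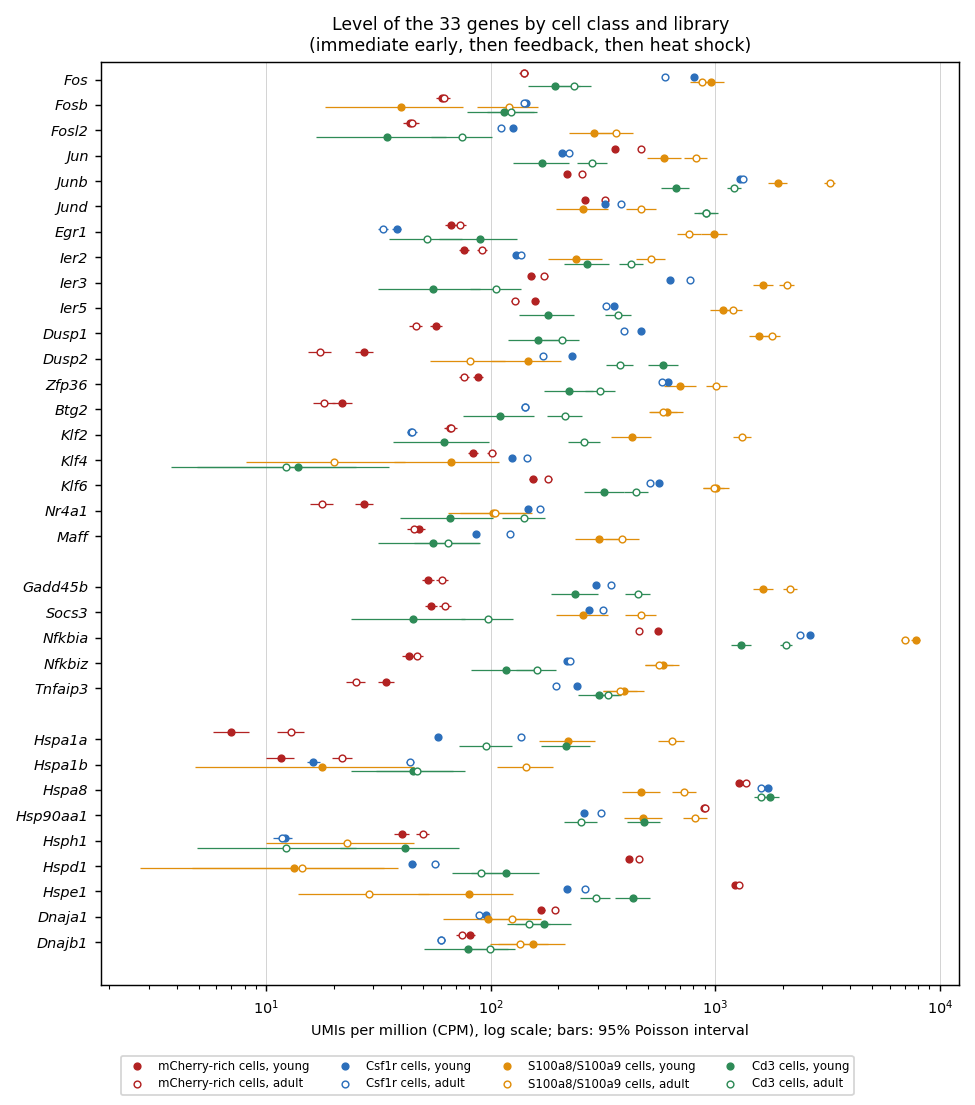
Level of each gene in CPM (log axis) in the 4 cell classes, for the young (filled) and the adult library (open), with 95% Poisson intervals as bars. Egr1 stands at 986 and 766 CPM in S100a8/S100a9 cells against 38.1 and 33.1 CPM in Csf1r cells, and Hspd1 at 411 and 456 CPM in mCherry-rich cells against 44.8 and 56.7 CPM. Hsph1, with 0 UMIs in young S100a8/S100a9 cells, has no point there.

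mCherry-rich cells had lower levels of most immediate early and all feedback genes than Csf1r cells, and higher levels of 4 heat shock genes. A gene was called when its CPM differed at least 2-fold from Csf1r cells of the same library, with an interval that excluded 1, in both libraries. By that rule 18 of the 33 genes were lower and 4 were higher, beside 25.2% and 23.4% of the 7880 features tested. The share of members that were lower (12 of 19 immediate early, 5 of 5 feedback and 1 of 9 heat shock genes) was thus above the background, and the share that were higher was below it. Median log2 ratios to Csf1r cells were -1.43 and -1.33 for immediate early, -2.24 and -2.37 for feedback and 0.79 and 1.08 for heat shock genes, against -0.04 and -0.01 for all features tested.

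The AP-1 genes encode Fos and Jun family proteins, which pair to bind DNA. All 3 Fos members and Junb were lower in mCherry-rich cells, while Jun and Jund were not called. Fos was at 140 and 141 CPM in mCherry-rich cells, 802 and 595 CPM in Csf1r cells, 955 and 869 CPM in S100a8/S100a9 cells and 193 and 236 CPM in Cd3 cells. It was thus 5.73-fold (interval 5.50 to 5.98) and 4.23-fold (4.06 to 4.42) lower in mCherry-rich than in Csf1r cells. Fosb, at 60.6 and 61.7 against 144 and 141 CPM, and Fosl2, at 43.8 and 44.8 against 126 and 111 CPM, were lower in the same cells by 2.28-fold to 2.88-fold. Junb, which can oppose Jun, was at 219 and 255 CPM in mCherry-rich, 1283 and 1333 CPM in Csf1r, 1897 and 3229 CPM in S100a8/S100a9 and 666 and 1216 CPM in Cd3 cells. That is 5.86-fold and 5.23-fold lower in mCherry-rich than in Csf1r cells. Jun was at 358 and 467 CPM in mCherry-rich against 207 and 224 CPM in Csf1r cells (1.73-fold and 2.09-fold higher), and passed the 2-fold rule in the adult library only. Jund, at 264 and 323 against 322 and 381 CPM, was within 2-fold.

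The signal-ending genes were among the lowest relative to Csf1r cells. Dusp1 was at 57.1 and 46.3 CPM in mCherry-rich, 465 and 392 CPM in Csf1r, 1566 and 1793 CPM in S100a8/S100a9 and 162 and 207 CPM in Cd3 cells. Dusp2, another MAP kinase phosphatase, was at 27.2 and 17.3 CPM in mCherry-rich and 230 and 171 CPM in Csf1r cells. They were lower in mCherry-rich cells by 8.14-fold and 8.48-fold for Dusp1 and by 8.47-fold and 9.86-fold for Dusp2. Zfp36, whose product marks AU-rich messages for decay, was at 87.8 and 76.1 CPM against 613 and 581 CPM in Csf1r cells. It stood at 699 and 1013 CPM in S100a8/S100a9 and at 224 and 307 CPM in Cd3 cells, and was 6.98-fold and 7.63-fold lower in mCherry-rich than in Csf1r cells. Btg2, an inhibitor of proliferation, was at 21.8 and 18.1 against 142 and 142 CPM. Ier3, an early response gene that NF-kB also drives, was at 151 and 173 CPM against 628 and 774 CPM, and Ier5 at 158 and 128 against 355 and 327 CPM. Klf6, a zinc finger factor, was at 154 and 180 CPM against 563 and 510 CPM in Csf1r cells.

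Nr4a1, an orphan nuclear receptor induced by many stimuli, was 5.35-fold and 9.40-fold lower in mCherry-rich cells (27.3 and 17.7 CPM) than in Csf1r cells (146 and 166 CPM). Egr1, a zinc finger factor of the growth response, was at 66.5 and 73.0 CPM against 38.1 and 33.1 CPM, which is 1.75-fold and 2.21-fold higher. Klf2 was at 65.7 and 66.6 against 44.0 and 44.7 CPM, Klf4 at 83.6 and 101 against 124 and 145 CPM, and Ier2 at 76.1 and 91.3 against 130 and 136 CPM. Maff, a small Maf protein, was at 47.8 and 45.6 against 85.7 and 122 CPM. These 5 genes did not pass the rule in both libraries.

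The 5 feedback genes were lower in mCherry-rich cells throughout. Nfkbia was at 554 and 457 CPM in mCherry-rich, 2642 and 2376 CPM in Csf1r, 7828 and 7020 CPM in S100a8/S100a9 and 1308 and 2069 CPM in Cd3 cells. It was 4.77-fold (4.67 to 4.87) and 5.21-fold (5.09 to 5.33) lower in mCherry-rich than in Csf1r cells. Tnfaip3 was at 34.1 and 25.0 CPM against 241 and 196 CPM in Csf1r cells, a difference of 7.08-fold and 7.86-fold. Nfkbiz, a nuclear partner of NF-kB, was at 43.4 and 46.7 against 218 and 226 CPM. Gadd45b, a stress sensor upstream of MAP kinases, was at 52.6 and 60.9 against 294 and 343 CPM, and Socs3, an inhibitor of cytokine receptor kinases, at 54.2 and 62.6 against 273 and 317 CPM. The 18 other NF-kB targets showed the same picture: 16 were lower in mCherry-rich cells and 0 higher, with Cxcl2 at 416 and 287 CPM against 4581 and 3888 CPM. With the RNA of Csf1r cells subtracted at the level of the C1q genes, Nfkbia in mCherry-rich cells was at 364 and 318 CPM, and the same 18 members were lower.

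Of the heat shock genes, Hspd1, Hspe1, Hsp90aa1 and Hsph1 were higher in mCherry-rich cells and Hspa1a was lower. Hspd1 was at 411 and 456 CPM in mCherry-rich, 44.8 and 56.7 CPM in Csf1r, 13.3 and 14.4 CPM in S100a8/S100a9 and 117 and 90.3 CPM in Cd3 cells. Its level in mCherry-rich cells was 9.16-fold (8.76 to 9.59) and 8.05-fold (7.70 to 8.42) that in Csf1r cells. Hspe1, the neighbour of Hspd1, was at 1227 and 1277 CPM in mCherry-rich cells and 218 and 264 CPM in Csf1r cells (5.62-fold and 4.83-fold). Both genes of the mitochondrial chaperonin were therefore highest in mCherry-rich cells. In S100a8/S100a9 cells Hspe1 was at 79.6 and 28.8 CPM, and in Cd3 cells at 428 and 294 CPM.

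The stress-inducible cytosolic Hsp90, Hsp90aa1, was at 892 and 897 CPM in mCherry-rich cells and 261 and 310 CPM in Csf1r cells, 3.41-fold and 2.90-fold higher. Hsph1, a nucleotide exchange factor that releases clients from Hspa proteins, was at 40.1 and 49.9 CPM against 12.1 and 11.7 CPM, 3.32-fold and 4.26-fold higher. Dnaja1, a J-domain co-chaperone, ran from 168 and 194 CPM in mCherry-rich to 95.4 and 89.0 CPM in Csf1r cells and did not pass the rule in the young library. Dnajb1, the J-domain partner of the inducible chaperone, was at 80.8 and 74.2 CPM against 60.3 and 60.3 CPM, within 2-fold. In S100a8/S100a9 cells Dnajb1 was at 155 and 135 CPM and Dnaja1 at 97.3 and 124 CPM. Hspa8, the form made at all times, was at 1282 and 1373 CPM against 1712 and 1591 CPM, also within 2-fold.

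Hspa1a was at 6.99 and 12.9 CPM in mCherry-rich cells and 58.3 and 136 CPM in Csf1r cells, 8.34-fold (6.95 to 10.1) and 10.6-fold (9.22 to 12.1) lower. Hspa1b was at 11.6 and 21.7 CPM against 16.2 and 43.7 CPM. So the chaperones that were high in mCherry-rich cells did not include the inducible pair. Of 20 other chaperone genes measured, 13 were higher in mCherry-rich cells and 0 lower, among them the mitochondrial chaperone Hspa9 at 470 and 475 CPM against 58.0 and 70.0 CPM. Of 19 other immediate early genes measured, 13 were lower and 3 higher. Of these, Cyr61, which encodes a secreted matrix protein, was at 97.6 and 104 CPM against 1.08 and 1.37 CPM in Csf1r cells, and Fosl1, a further Fos family gene, at 124 and 106 against 11.6 and 8.89 CPM.

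**Figure D2:**
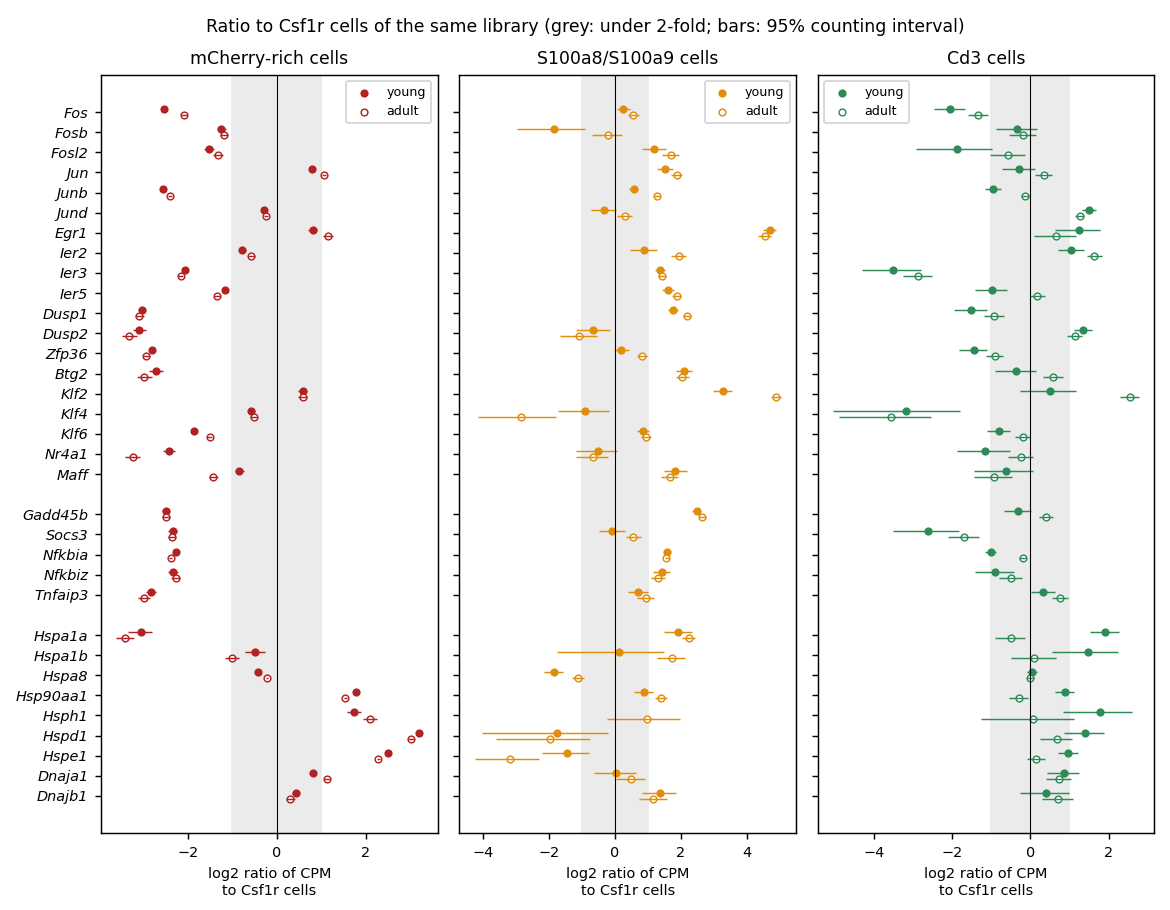
Log2 ratio of each gene's CPM in mCherry-rich, S100a8/S100a9 and Cd3 cells to Csf1r cells of the same library, young filled and adult open, with 95% counting intervals. The grey band marks differences under 2-fold. In mCherry-rich cells all 5 feedback genes lie left of the band and Hspd1 lies furthest right, 9.16-fold and 8.05-fold above Csf1r cells. Hsph1 in young S100a8/S100a9 cells had 0 UMIs and has no point.

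S100a8/S100a9 cells carried the highest levels of many of the genes. Against Csf1r cells 14 of the 33 were at least 2-fold higher in both libraries, beside 8.42% of the 7117 features tested, and 3 were lower, beside 20.3%. The 14 were 9 of 19 immediate early genes, 3 of 5 feedback genes (Gadd45b, Nfkbia and Nfkbiz) and 2 of 9 heat shock genes (Hspa1a and Dnajb1). Median log2 ratios were 0.85 and 1.42 for immediate early, 1.40 and 1.29 for feedback and 0.03 and 0.75 for heat shock genes, against -0.64 and -0.71 for all features tested.

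Egr1 and Klf2 stood furthest from Csf1r cells. Egr1 was at 986 and 766 CPM, 25.9-fold (22.5 to 29.7) and 23.2-fold (20.3 to 26.4) above Csf1r cells, and had a UMI in 61.4% and 58.0% of the cells. In Cd3 cells Egr1 was at 89.7 and 52.1 CPM. Klf2, a factor of quiescence and endothelial flow responses, was at 425 and 1318 CPM, 9.65-fold and 29.5-fold above Csf1r cells. Both genes were higher in S100a8/S100a9 cells than in any other class of their library. Gadd45b was at 1636 and 2159 CPM (5.56-fold and 6.29-fold above Csf1r cells), Btg2 at 610 and 587 CPM (4.29-fold and 4.13-fold), and Dusp1 at 3.37-fold and 4.57-fold the Csf1r level. Nfkbia had a UMI in 93.1% and 92.0% of these cells, and was 2.96-fold and 2.95-fold above Csf1r cells.

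Ier3, Ier5, Jun, Fosl2, Maff and Nfkbiz were also higher in S100a8/S100a9 cells. Ier3 was at 1632 and 2081 CPM and Ier5 at 1084 and 1194 CPM. Jun was at 593 and 820 CPM, Fosl2 at 287 and 360 CPM and Maff at 305 and 386 CPM. Nfkbiz, at 584 and 561 CPM, was 2.67-fold and 2.48-fold higher than in Csf1r cells. Tnfaip3, at 394 and 377 CPM, and Klf6, at 1008 and 984 CPM, stayed under 2-fold. Nr4a1 was at 102 and 104 CPM, below its level in Csf1r cells. Of the other NF-kB targets, 6 of 18 were higher and 0 lower, with the chemokine genes Ccl3 at 11605 and 6116 against 380 and 382 CPM and Ccl4 at 12706 and 10560 against 1232 and 952 CPM. Of 18 other immediate early genes measured, 8 were higher and 2 lower.

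Lower in these cells were Hspa8, Hspd1 and Hspe1. Hspa8 was at 469 and 725 CPM (3.65-fold and 2.19-fold below Csf1r cells). Hspd1 had only 3 and 5 UMIs, and Hspe1 only 18 and 10. Of 20 other chaperones measured, 7 were lower and 1, Hspa4l, was higher (111 and 92.1 against 18.4 and 15.3 CPM). Hspa1a and Dnajb1 were the heat shock genes called higher. Dnajb1 was 2.57-fold and 2.24-fold above Csf1r cells, and Hsp90aa1, at 1.83-fold and 2.63-fold, passed the limit in the adult library only. Hspa1a was at 221 and 639 CPM, 3.79-fold and 4.71-fold above Csf1r cells. These UMIs came from few cells: 7 of 101 young and 29 of 176 adult cells had an Hspa1a UMI, and a single cell held 54.0% and 33.8% of them. In cells thinned to 1500 UMIs each, Hspa1a and Fosl2 no longer passed the rule against Csf1r cells. The highest young cell also held 22.2% of the Ier3 and 33.6% of the Jun UMIs, against 5.26% and 16.5% in the highest adult cell. S100a8/S100a9 cells are shallow and few, so these levels rest on 226113 and 347437 UMIs.

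Cd3 cells lay between, and their results changed most with the way the class was made. Against Csf1r cells 3 genes were higher (Jund, Ier2 and Dusp2), beside 11.1% of the 8396 features tested, and 4 were lower (Fos, Ier3, Klf4 and Socs3), beside 9.09%. Both shares are near the background. Jund was at 908 and 914 CPM, 2.82-fold and 2.40-fold above Csf1r cells, Ier2 at 269 and 422 CPM and Dusp2 at 587 and 375 CPM. Ier3 was at 55.2 and 106 CPM, Klf4 at 13.8 and 12.2 CPM (4 and 7 UMIs) and Socs3 at 44.9 and 97.3 CPM. Fos, at 193 and 236 CPM, was 4.15-fold and 2.52-fold lower than in Csf1r cells.

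The other members in Cd3 cells are given without a call. Fosb was at 114 and 123 CPM, Klf6 at 321 and 445 CPM and Maff at 55.2 and 64.3 CPM. Of the feedback genes, Tnfaip3 was at 304 and 332 CPM and Nfkbiz at 117 and 160 CPM. Of the chaperones, Hspa8 was at 1757 and 1591 CPM, Dnaja1 at 173 and 148 CPM, Dnajb1 at 79.4 and 99.0 CPM and Hspa1b at 44.9 and 46.9 CPM. Of the other pathway genes measured, 0 of 18 immediate early, 0 of 18 NF-kB target and 0 of 20 chaperone genes were higher than in Csf1r cells, and 8, 5 and 0 were lower. When barcodes meeting more than 1 rule were kept (65 young and 122 adult Cd3 cells), 0 of the 3 higher genes and 2 of the 4 lower genes, Ier3 and Klf4, remained. With the RNA of Csf1r cells subtracted, Dusp1 and Zfp36 were also lower.

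Between the ages, the inducible pair Hspa1a and Hspa1b was higher in the adult library in 3 of the 4 classes, all but Cd3 cells. These calls held under every alternative run in Csf1r and S100a8/S100a9 cells but not in mCherry-rich cells. In S100a8/S100a9 cells they rested on few cells, and no alternative was aimed at the cells with most of these UMIs. A gene was called at a 1.5-fold difference between the libraries with an interval that excluded 1. In Csf1r cells, the class with the most cells, 0 of 33 genes were higher in the young library, beside 3.39% of the 6484 features tested, and 2 were lower, beside 2.50%: Hspa1a and Hspa1b. Hspa1a was 2.33-fold (2.23 to 2.43) higher in the adult library, at 136 against 58.3 CPM, and Hspa1b 2.69-fold (2.49 to 2.91) higher, at 43.7 against 16.2 CPM. The other 31 genes lay within 1.5-fold. Those closest to the limit were Maff (85.7 and 122 CPM, 1.43-fold higher in adult), Fos (802 and 595 CPM, 1.35-fold higher in young) and Dusp2 (230 and 171 CPM, 1.35-fold higher in young). Median log2 ratios of young over adult were 0.00 for immediate early, -0.05 for feedback and -0.24 for heat shock genes, and 0.04 for all features. Of the other genes of these pathways only Egr2 passed the limit in Csf1r cells, at 17.8 and 36.0 CPM, with 0 of 18 NF-kB targets and 0 of 20 other chaperones.

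**Figure D3:**
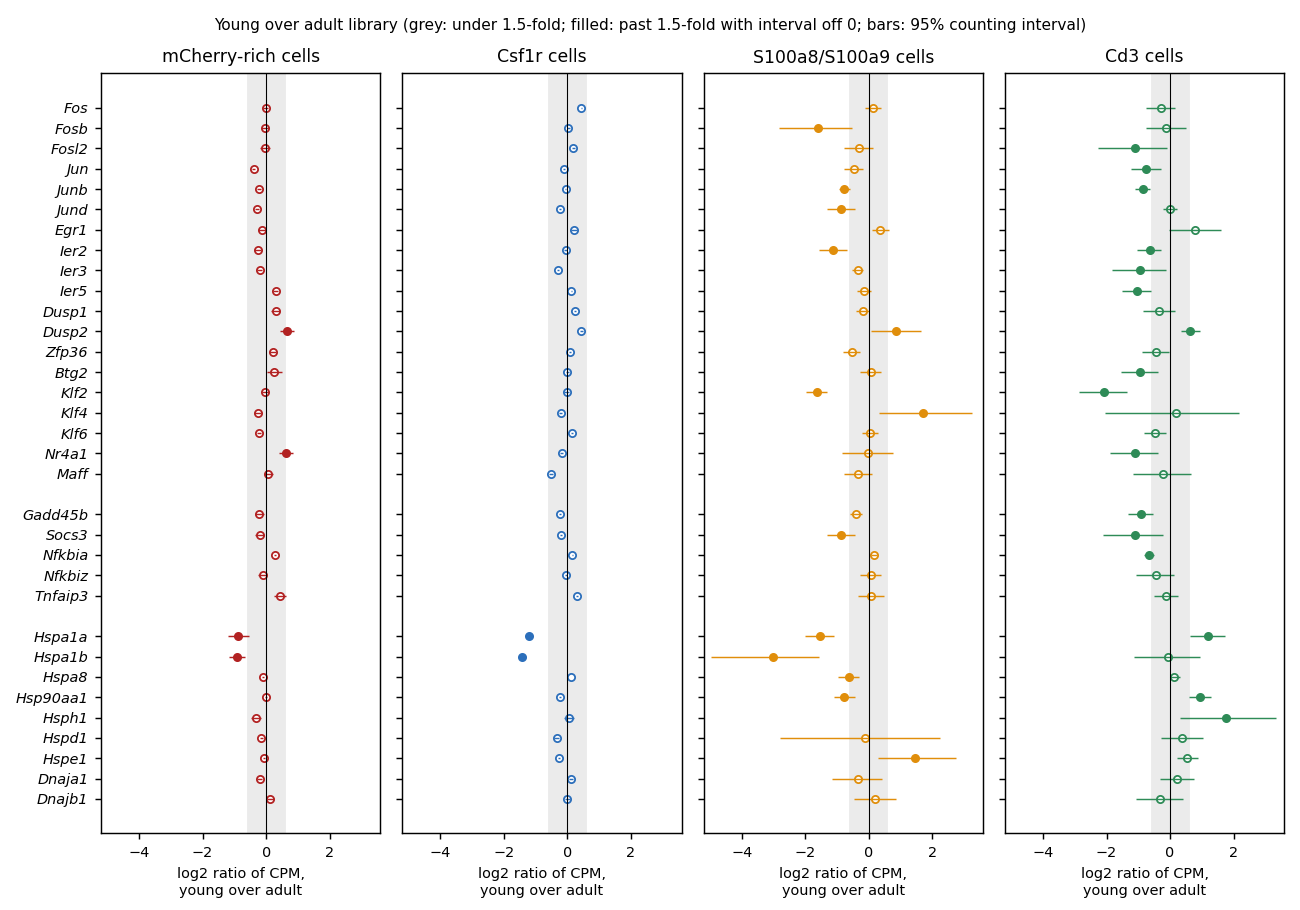
Log2 ratio of each gene's CPM in the young over the adult library, in each class, with 95% counting intervals. The grey band marks differences under 1.5-fold, and filled points passed the rule. In Csf1r cells only Hspa1a and Hspa1b are filled, at 0.430 and 0.372 of the adult level, while intervals in S100a8/S100a9 and Cd3 cells are wide. Hsph1 in young S100a8/S100a9 cells had 0 UMIs and has no point.

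The difference of the Hspa1a and Hspa1b pair in Csf1r cells went with a larger share of adult cells carrying these messages. With each cell thinned to 1500 UMIs, a UMI of Hspa1a or Hspa1b was found in 6.93% of 5281 young and 12.1% of 4204 adult Csf1r cells. Without thinning, Hspa1a alone had a UMI in 19.5% and 27.2% of cells, at near-equal depth. The messages were concentrated: the top 5% of thinned cells held 87.6% and 76.1% of them, and the highest cells had 37 and 28 UMIs of 1500. By contrast, 99.5% and 99.4% of the same thinned cells had an immediate early UMI, and the top 5% held 14.4% and 14.2% of those. The variance of the counts over their mean was 7.18 and 6.37 for the pair and 4.26 and 4.19 for the immediate early sum. In thinned mCherry-rich cells the pair was found in 3.33% and 2.97% of cells.

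**Figure D4:**
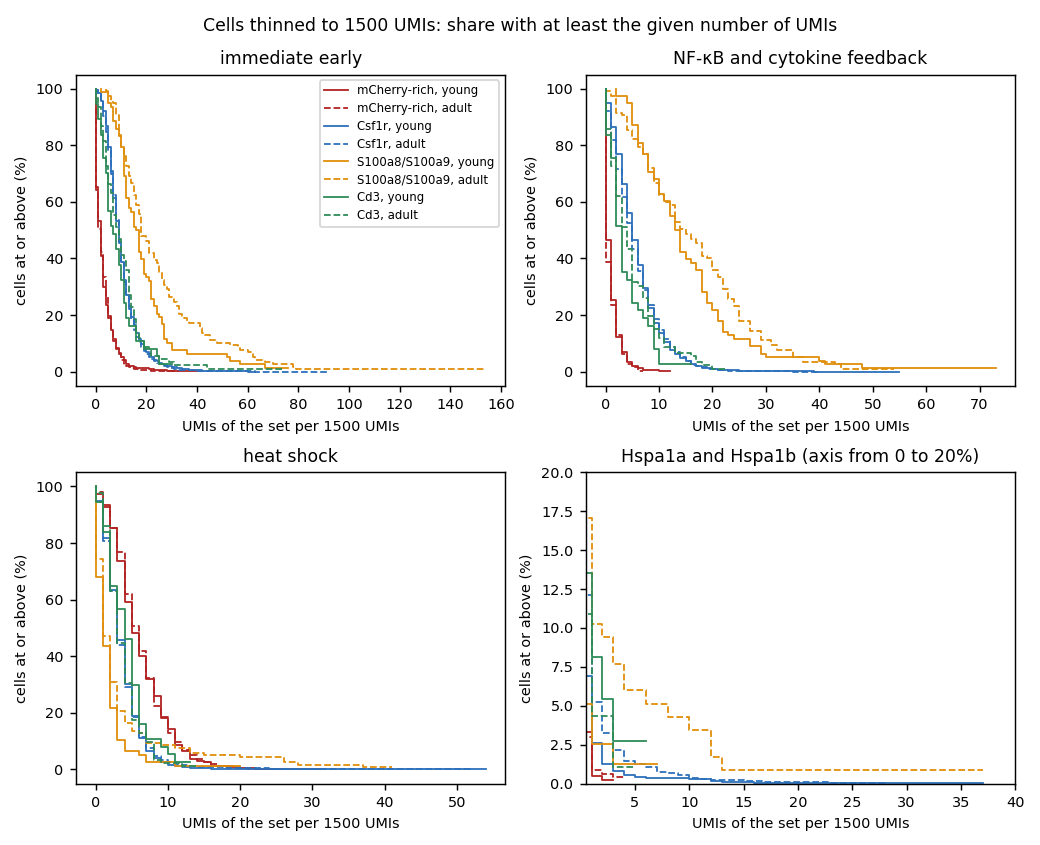
Share of cells (vertical axis, percent) with at least the given number of UMIs (horizontal axis) of each set, after thinning every cell to 1500 UMIs, by class and library. The curves of mCherry-rich cells lie lowest and those of S100a8/S100a9 cells highest for immediate early and feedback genes, while 97.4% and 97.9% of mCherry-rich against 67.9% and 74.4% of S100a8/S100a9 cells have a heat shock UMI. In the last panel, drawn to 20%, the Csf1r curves start at 6.93% of young and 12.1% of adult cells.

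The lower level of the pair in young Csf1r cells held in each of 10 ranges of the class that were examined. By tertiles of mitochondrial share, Hspa1a was at 51.1, 48.6 and 77.7 CPM from the lowest to the highest in young cells and at 128, 130 and 152 CPM in adult cells. By tertiles of UMIs per cell, Hspa1a was at 139, 40.3 and 40.5 CPM in young and 228, 151 and 92.8 CPM in adult cells. Each adult value lay above the young value of the same tertile. Hspa1b ran from 11.0 to 39.5 CPM over the tertiles by UMIs in young cells and from 36.7 to 63.1 CPM in adult cells, in each tertile higher in adult. Other members passed the limit in some ranges only, such as Maff, higher in adult cells in the lowest and middle tertile by UMIs, and Fos, higher in young cells in the lowest. Csf1r cells were also divided by macrophage and monocyte genes, a division made after the data were seen. Cells rich in C1q (317 and 563) had 46.1 and 161 CPM of Hspa1a, and cells rich in Ly6c2 and Plac8 (1658 and 1460), genes of recently arrived monocytes, had 65.1 and 144 CPM. In the 77 young and 57 adult Csf1r cells with a UMI of the cycling genes Mki67 or Top2a after thinning, Hspa1a was at 60.2 and 187 CPM.

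In mCherry-rich cells, the same 2 genes were the ones lower in the young library, beside 0.933% of the 6644 features tested, and 2 were higher, Dusp2 and Nr4a1, beside 4.27%. Hspa1a, at 6.99 and 12.9 CPM, was 1.84-fold (1.47 to 2.32) and Hspa1b, at 11.6 and 21.7 CPM, 1.88-fold (1.58 to 2.24) higher in adult. These are low levels, with 119 and 219 UMIs of Hspa1a. They also differed by range: in the highest tertile by mitochondrial share neither gene was called, and in the lowest by UMIs Hspa1a stood higher in young cells, on 22 and 18 UMIs. The Hspa1a difference turned to a log2 ratio of 0.11 when cells were thinned, where 14 cells of each library had a UMI of the pair, and it was not called with equal cell weights, with stricter class cuts or when the RNA of Csf1r cells was subtracted, which left 2.79 and 4.95 CPM. Hspa1b remained called after that subtraction, at 10.4 and 19.2 CPM, and was not called when cells were thinned. Dusp2, at 27.2 and 17.3 CPM, was 1.57-fold (1.35 to 1.82) and Nr4a1, at 27.3 and 17.7 CPM, 1.54-fold (1.33 to 1.79) higher in young. Dusp2 was not called after the subtraction, and neither was called with stricter class cuts or when cells were thinned. When thinned, Ier2 and Zfp36 were called higher in their place. With stricter cuts, which leave out mCherry-rich cells with a Csf1r UMI, Egr1, Ier2, Junb and Klf6 were added to the genes lower in young. Ier2 was thus called in opposite directions when thinned and with stricter cuts. Jun, at 358 and 467 CPM, was the AP-1 gene that differed most, and lay within the limit.

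In S100a8/S100a9 cells 11 of 33 genes were lower in the young library, beside 3.03% of the 5445 features tested, and 3 were higher, beside 5.56%. The 11 were Fosb, Junb, Jund, Ier2 and Klf2 of the immediate early genes, Socs3 of the feedback genes and Hspa1a, Hspa1b, Hspa8, Hsp90aa1 and Hsph1 of the heat shock genes. Junb was at 1897 and 3229 CPM, 1.70-fold (1.52 to 1.91) higher in adult, and Klf2 at 425 and 1318 CPM, 3.10-fold (2.49 to 3.91) higher. Ier2 was at 239 and 518 CPM, Jund at 257 and 469 CPM, Socs3 at 257 and 466 CPM and Fosb at 39.8 and 121 CPM (9 and 42 UMIs). A single cell held 7.69% and 4.37% of the Junb UMIs and 13.5% and 6.77% of those of Klf2, but 22.2% and 12.2% of those of Ier2 and 33.3% and 9.52% of those of Fosb. With barcodes meeting more than 1 rule kept, 7 of the 11 remained, without Fosb, Socs3, Hspa8 and Hsph1. Hspa1a was 2.89-fold (2.12 to 4.01) higher in adult and Hspa1b 8.14-fold (2.99 to 31.0), the latter on 4 and 50 UMIs. As given above, a single cell held a large share of the Hspa1a UMIs in each library. After thinning, 4 of 78 young and 20 of 117 adult cells had a UMI of the pair. The intervals do not cover this spread between cells.

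Hsp90aa1 in S100a8/S100a9 cells was at 478 and 815 CPM (1.71-fold higher in adult) and Hspa8 at 469 and 725 CPM, with 23.0% and 15.1% of the adult UMIs in a single cell. Hsph1 had 8 UMIs (23.0 CPM) in 5 adult cells and 0 in young cells, which allows up to 13.3 CPM. The genes higher in young rested on few UMIs: Dusp2 at 146 and 80.6 CPM (33 and 28 UMIs), Klf4 at 66.3 and 20.1 CPM (15 and 7 UMIs) and Hspe1 at 79.6 and 28.8 CPM (18 and 10 UMIs). None of these 3 was called after thinning, which left 78 and 117 cells. Other members lay within the limit or had intervals that included 1, among them Egr1, Nfkbia, Dusp1 and Gadd45b. Of the 8 neutrophil markers outside the class rule, 6 were higher and 2, Cxcr2 (358 and 322 CPM) and Mmp9 (354 and 204 CPM), lower in adult S100a8/S100a9 cells. Macrophage or monocyte markers there summed to 2981 and 1851 CPM. The part of these differences in the results was not tested. Of the other pathway genes measured in these cells, 1 of 18 immediate early, 1 of 18 NF-kB target and 0 of 17 chaperone genes were higher in young and 3, 0 and 0 lower.

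In Cd3 cells 12 genes were lower in the young library, beside 6.78% of the 7822 features tested, and 4 were higher, beside 4.22%. The lower genes were Fosl2, Jun, Junb, Ier2, Ier3, Ier5, Btg2, Klf2 and Nr4a1 with the feedback genes Gadd45b, Socs3 and Nfkbia. Junb was at 666 and 1216 CPM, Ier5 at 179 and 370 CPM, Klf2 at 62.1 and 261 CPM, Gadd45b at 238 and 452 CPM and Nfkbia at 1308 and 2069 CPM. Jun was at 169 and 283 CPM, Btg2 at 110 and 214 CPM, Nr4a1 at 65.6 and 141 CPM and Fosl2 at 34.5 and 74.7 CPM. The genes higher in young were Dusp2 (587 and 375 CPM), Hspa1a (217 and 95.5 CPM), Hsp90aa1 (480 and 252 CPM) and Hsph1 (41.4 and 12.2 CPM). The Hspa1a UMIs lay in 7 of 40 young and 18 of 105 adult cells. Of the other pathway genes measured, 1 of 16 immediate early, 2 of 18 NF-kB target and 3 of 19 chaperone genes were higher in young and 1, 5 and 0 lower, with Ccl4 at 5191 and 429 CPM. Gzma and Klrb1c, listed here with the natural killer markers, were at 2592 and 311 CPM and at 65.6 and 1.74 CPM in these cells. The part of these differences in the results was not tested.

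Few of these Cd3 calls were stable. With barcodes meeting more than 1 rule kept, 7 of the 12 remained, and 0 of the 4 that were higher: Hspa1a then stood at a log2 ratio of -0.19, Ier3 at 0.65 and Socs3 at 0.54. Thinned to 1500 UMIs (37 and 92 cells), 3 of the 12 remained, Ier5, Klf2 and Gadd45b. These 3 were also called with the overlapping barcodes kept. With the RNA of Csf1r cells subtracted, 6 genes were higher in young, without Dusp2 and with Egr1, Ier3 and Klf4 added.

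Within mCherry-rich cells the immediate early and feedback genes varied with the mitochondrial share. From the lowest to the highest tertile of cells, the immediate early sum went from 1346 to 2365 CPM in young and from 910 to 2845 CPM in adult cells, and the feedback sum from 509 to 850 and from 287 to 789 CPM. The middle tertile was already at 2374 and 2718 CPM for immediate early and at 789 and 749 CPM for feedback genes. It was thus the lowest tertile that stood apart. The heat shock sum went from 4715 in the lowest to 3711 CPM in the highest tertile in young and from 5339 to 3683 CPM in adult cells. In both libraries 17 members were at least 1.5-fold higher in the highest tertile, with intervals that excluded 1, beside 20.2% of the 6392 features tested. Of the 33, 1, Hspa8, was lower, beside 1.74%. Egr1 was 2.54-fold and 8.09-fold higher, Jund 2.78-fold and 4.48-fold, Jun 2.13-fold and 4.19-fold and Nfkbia 1.64-fold and 3.01-fold. Median UMIs per cell in the lowest and highest tertile were 23969 and 31490.5 in young and 24114 and 33194.5 in adult cells. By UMIs per cell, 11 of 33 members were higher in the highest than in the lowest tertile in both libraries, beside 32.6% of the 6510 features tested, which is no more than the background, and 0 were lower, beside 2.43%. In the lowest tertile by mitochondrial share, 16 members were higher in the young than in the adult library, beside 15.6% of the 5907 features tested. In the middle tertile 0 were, beside 4.80%, and in the highest 3, beside 5.05%. The part of mitochondrial share and depth in these differences was not tested.

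Csf1r cells showed another pattern. By mitochondrial share 0 members were 1.5-fold higher in both libraries, beside 0.735% of the 6256 features tested, and 0 lower, beside 0.512%. By UMIs per cell 12 were lower in the highest tertile (Jun, Egr1, Ier5, Dusp1, Dusp2, Klf2, Klf6, Maff, Nfkbia, Tnfaip3, Hspa1a and Hspa1b), beside 4.72% of the 6356 features tested, and 1, Hspd1, was higher, beside 3.38%. Nfkbia in the highest tertile was at 0.646 and 0.525 of its level in the lowest, and Hspa1a at 0.291 and 0.407. Cells rich in Ly6c2 and Plac8 had more Nfkbia (1.68-fold and 2.25-fold), Maff (1.66-fold and 2.56-fold) and Dusp2 (1.58-fold and 1.59-fold) than C1q-rich cells and less Hspe1 (0.645 and 0.458 of the level). These are 3 and 1 members, beside 4.18% and 5.25% of the 6365 features tested. They were also shallower, at medians of 9202.5 and 8585 against 11935 and 13913 UMIs, and the part of depth was not tested. In Csf1r cells Klf2 was the only member to differ 1.5-fold with cycling genes in both libraries, 1.83-fold and 1.91-fold higher in Csf1r cells with a UMI of Mki67 or Top2a, beside 2.57% of the 6430 features tested that were higher and 0.202% that were lower.

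**Figure D5:**
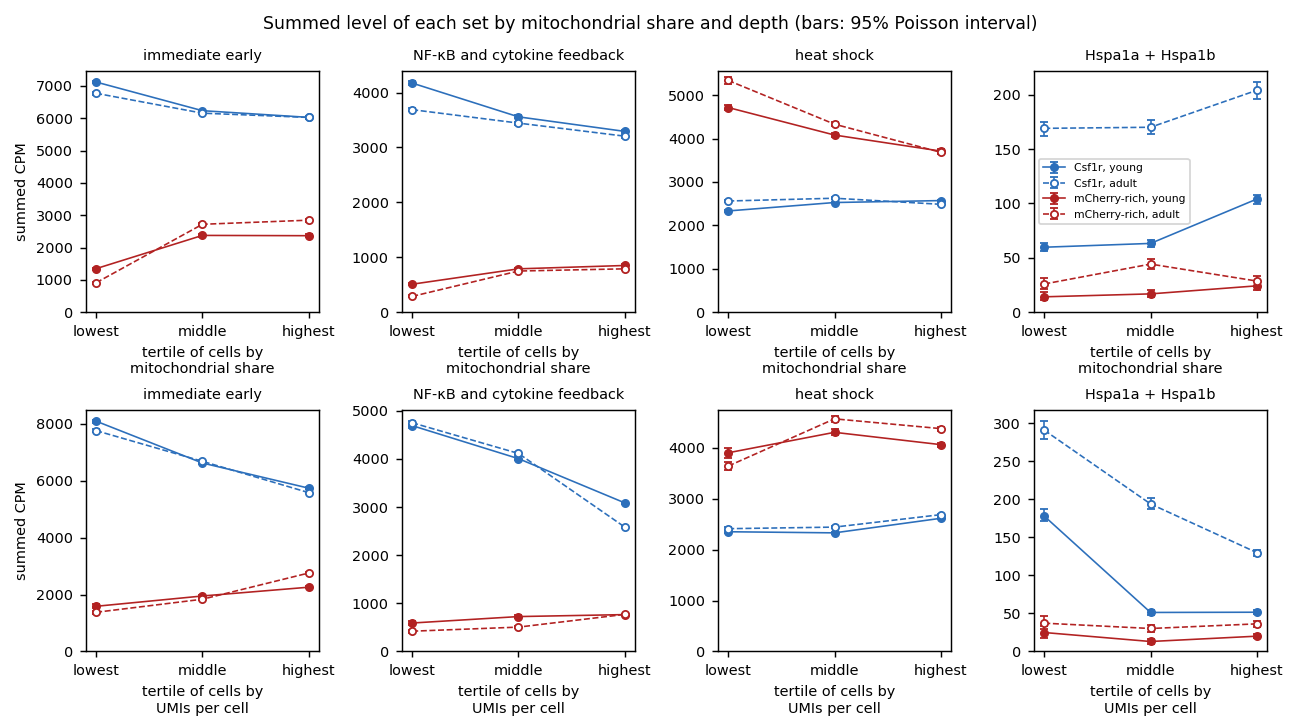
Summed CPM of each set in tertiles of Csf1r and mCherry-rich cells by mitochondrial share (top) and by UMIs per cell (bottom), young filled and adult open, with 95% Poisson intervals. Immediate early genes in mCherry-rich cells go from 1346 to 2365 CPM in young and from 910 to 2845 CPM in adult cells from the lowest to the highest tertile by mitochondrial share. The middle tertile lies at 2374 and 2718 CPM. The adult line of Hspa1a and Hspa1b in Csf1r cells lies above the young line in every tertile. Tertiles were cut within each library.

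From cell to cell, the immediate early sum had a positive Pearson's r with the feedback sum in all 4 classes. In thinned cells r between these sums was 0.33 and 0.33 over 5281 and 4204 Csf1r cells and 0.49 and 0.44 over 420 and 472 mCherry-rich cells. Between immediate early and heat shock sums it was 0.05 and 0.09 in Csf1r and -0.03 and -0.14 in mCherry-rich cells. In S100a8/S100a9 cells (78 and 117) the immediate early sum went with the heat shock sum (0.33 and 0.23) about as much as with the feedback sum (0.29 and 0.27). In Cd3 cells (37 and 92) it had an r of 0.45 and 0.44 with the feedback and 0.01 and 0.16 with the heat shock sum. These are descriptions over cells that share a library, which are not replicates. Single pairs were formed from members with a mean of at least 0.05 UMIs in thinned cells, which left out Hspa1b and Hsph1 in young and Hsph1 in adult Csf1r cells. Fos and Dusp1 then had the highest r of 465 pairs in the young library (0.35) and an r of 0.24 in the adult library, where Hspa1a and Hspa1b had the highest of 496 pairs (0.55). The r of Hspa1a and Hspa1b in young cells was not computed. In mCherry-rich cells the highest were Klf2 with Jun and with Ier2 (both 0.49) in the young and Jun with Jund (0.45) in the adult library.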

How the data were processed

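Per the labels, sorted cells were profiled with 10x Genomics 3' v2 chemistry. The deposited values are unnormalised UMI counts, and Cell Ranger 3.0.2 with mm10 is given in the submitters' processing notes. Which annotation and barcode filter were used is not stated. There were 7558 young and 6279 adult barcodes, with 84862471 and 70988070 UMIs. Barcodes with fewer than 200 genes or more than 10% mitochondrial UMIs were removed (468 and 505, leaving 7090 and 5774). No doublet caller was run. Barcodes meeting more than 1 class rule were left out, which could not remove mCherry-rich barcodes with a Csf1r UMI. Leaving out the 6% of cells with most UMIs was an alternative.

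UMIs were summed per class and library. CPM intervals are exact Poisson and ratio intervals conditional binomial (Clopper-Pearson). Log2 ratios printed for single members and medians used a pseudocount of 5 CPM. Features with at least 10 CPM in a sum compared were tested against the fold rules, and all 33 members passed that minimum in each comparison. Limits for genes with 0 UMIs are 3 counts. Each cell was thinned to 1500 UMIs at random once, leaving out shallower cells. Free RNA was estimated in each class from C1qa, C1qb and C1qc relative to Csf1r cells and subtracted as an alternative. The ratio and thinning steps were tested on simulated data. Every member was described that passed a fold rule or was among the 3 highest of its group in Csf1r cells, and at most 2 genes were named from each other list. The members, lists and rules were chosen with earlier results of these data known. Python 3.11.15, numpy 2.4.6, scipy 1.17.1 and pandas 2.3.3 were used, with matplotlib 3.10.9 for figures.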

Additional observations from a re-analysis of the deposited data

Results flagged for a closer look

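Members of the list were looked at for opposite directions between cell classes: both classes past the 1.5-fold rule, in opposite directions between the ages. These differences between classes were not tested, since each age is 1 library. Values are log2 ratios of young over adult with a pseudocount of 5 CPM.

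Hspa1a was lower in young mCherry-rich (-0.58), Csf1r (-1.15) and S100a8/S100a9 cells (-1.51) and higher in young Cd3 cells (1.15), the last on 63 and 55 UMIs. Hsp90aa1 was lower in young S100a8/S100a9 cells (-0.76) and higher in young Cd3 cells (0.92). Hsph1 showed -2.49 and 1.44 in the same classes, on 0 and 8 UMIs in the former, so its value there depends on the pseudocount and is no bound. Nr4a1 was higher in young mCherry-rich cells (0.51) and lower in young Cd3 cells (-1.05). The Cd3 values of Hspa1a, Hsp90aa1 and Hsph1 were not called when barcodes meeting more than 1 class rule were kept, and neither was that of Nr4a1.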

How the results depend on the processing

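Of 138 recomputed counts of called members, 116 stayed within 1.5 times the main count and 22 did not, and of 1150 recomputed member ratios 378 moved beyond their interval and 6 turned direction. Of 297 recomputed medians of the 3 gene groups 99 moved by over 0.1 on the log2 scale. In Csf1r cells, 0 members were higher in young and Hspa1a and Hspa1b were lower under every alternative run, with Maff added when thinned. The lower members of mCherry-rich against Csf1r cells stayed at 18 or 19. Members higher in young mCherry-rich cells (2) were 2 other genes, Ier2 and Zfp36, when thinned, and went to 0 with stricter class cuts, 1 with Csf1r RNA subtracted and 0 at 2-fold, and those lower (2) to 0 when thinned, 1 with each cell weighing the same, 5 with stricter cuts, 1 with subtraction and 0 at 2-fold. In S100a8/S100a9 cells the higher (3) went to 0 when thinned and the lower (11) to 6 at 2-fold. In Cd3 cells the higher (4) went to 1 when thinned and 2 at 2-fold, and the lower (12) to 7 with overlapping barcodes kept, 3 when thinned and 5 at 2-fold. Against Csf1r cells, mCherry-rich higher (4) became 7 and S100a8/S100a9 lower (3) became 5 at 1.5-fold. Cd3 higher (3) became 1 with overlap kept, 5 with equal cell weights, 1 with stricter cuts and 6 at 1.5-fold, and Cd3 lower (4) became 2 with overlap kept. The log2 ratio of young over adult turned for Hspa1a in mCherry-rich cells (0.11, thinned) and in Cd3 cells (-0.19, overlap kept). In Cd3 cells it turned for Ier3 (0.65 with overlap kept, 0.51 with stricter cuts and 3.25 with subtraction, which left 0 CPM in adult) and Socs3 (0.54 with overlap kept). The cause of these changes was not tested.

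Leaving out barcodes shared by the libraries, and dividing cells by C1q, Ly6c2, cycling genes, mitochondrial share and depth, were chosen after the data were seen. No paired analysis was possible because each age has a single library. In S100a8/S100a9 and Cd3 cells, depth limits detection: no member there had more than 2439 UMIs in a library.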
